A study of Mus musculus with 24 samples.

Results

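Blood drawn 24 h after an x-ray dose of 4 Gy to the whole body was compared between old mice (21 months, 6 mice) and young mice (2 months, 6 mice). These 12 arrays, chosen by their titles, are part of a series of 24. The other 12 hold unirradiated mice of the same ages, 6 of each, which the methods describe as sham-irradiated, and serve here only to set each age difference after radiation beside the one without it. All were male mice of the C57BL/6J strain with no engineered allele named for any group. Each array holds the blood of 1 mouse, obtained by puncture of the heart and stabilised in PAXgene solution, and the methods state that globin RNA was depleted before a single dye (Cy3) was hybridised to Agilent mouse arrays.

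Whole blood RNA is a mixture of red cell precursors, platelets, neutrophils, monocytes and lymphocytes, and lymphocytes are among the most radiosensitive cells of the body. DNA damage activates p53, which induces arrest and death genes, and damaged or dying cells can also trigger type I interferon, whose target genes encode sensors of foreign or misplaced nucleic acid, antiviral enzymes and regulators of cell death. Ageing is known to reduce naive lymphocytes and to expand experienced CD8 T cells and myeloid cells. In bulk blood, fewer cells of a type and less RNA per cell cannot be told apart.

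Levels are given as log2 of the background-subtracted intensity relative to the array's median over the 15640 spots that were well above background on all 12 irradiated arrays, so 0 is the median of these bright spots. Differences are old minus young on the same log2 scale. A gene is termed called when it passed 2 thresholds of limma's two-sided moderated test, an unadjusted p under 0.005 and, over the 12812 genes tested, a Benjamini-Hochberg value under 0.05. Spots well above background made up 44.3% to 62.3% of the 43020 spots in old and 43.9% to 63.2% in young irradiated mice. The local background around the spots was 44 to 52 in old and 60 to 65 in young irradiated mice, without overlap, and all arrays of an age were scanned on a single day, so scan day and age cannot be told apart. No slide held arrays of both ages, so slide and age cannot be told apart either. Nothing in the labels says that mice of a group came from separate litters or cages, so p-values measure the spread between these mice.

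Old irradiated replicates 4 and 6 stood apart from the other 4 old irradiated mice. Across bright spots, the SD of the log2 difference was 1.55 to 1.84 in the 8 pairs that join either of them to the other 4, 0.356 to 0.692 in the 6 pairs among those 4, and 0.126 to 0.930 among young irradiated mice. Between replicates 4 and 6 it was 0.237. The labels list them as separate mice and they were kept as such. With replicates 4 and 6 counted as 1 sample, and likewise young replicates 2 and 5 (SD 0.126), 100 genes were called in place of the 130 given below. Of these 100, 9 were higher and 91 lower. Young replicates 1 and 6, with an SD of 0.166, stayed separate samples in that count. Unirradiated mice were not compared pair by pair in this way, and all entered as separate samples. Old unirradiated replicates 1 and 6 had close list means, as for tissue macrophage genes (-2.60 and -2.62, against -1.36 to -0.33 in the other old unirradiated mice). The mean level of 31 red cell and heme genes was 4.54 and 4.45 in old irradiated replicates 4 and 6 and 0.71 to 1.56 in the other 4 old irradiated mice. The main results are therefore given with and without them.

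Of the 12812 genes tested, 130 were called (1.01%). Among these, 25 were higher in old mice (0.195% of the genes tested) and 105 were lower (0.820%). Values of the ages did not overlap for 373 genes (2.91%), 173 of them higher (1.35%) and 200 lower in old mice (1.56%). Without old irradiated replicates 4 and 6, 3297 genes were called (25.7%), 838 higher (6.54%) and 2459 lower (19.2%), and all 130 genes were among them. The count was 26 without young irradiated replicate 3 and 327 without old irradiated replicate 6, and it lay between 48 and 151 with any other single mouse left out. Most called genes were dim: 35 of the 130 were well above background on all 12 arrays. With another background correction (normexp), 2 genes were called, 2 of them higher and 0 lower in old mice. None of the 105 calls lower in old mice held with it.

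The split into higher and lower depended on how arrays were scaled. The share higher in old mice was 19.2% here, 60.0% with the median of all spots, 40% with quantile normalization and 1.75% with the spike-in spots as the scale. The median difference of all 18363 genes past the background filter was -0.06, and these scalings moved it to 0.21, -0.04 and -0.32. For genes well above background on all 12 arrays the median difference was 0.05, whereas for the other 6725 genes it was -0.31. Directions given below are relative to these medians. For the 35 called genes taken up because they had the largest differences or belong to a list, the direction was the same under the 5 other scalings of the arrays.

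Genes called lower in old irradiated mice included interferon-stimulated genes. *Zbp1*, *Oas1a* and *Ifi44* were called from a list of 42 interferon-stimulated genes. *Zbp1* encodes a sensor of Z-form nucleic acid that can start necroptosis, *Oas1a* an enzyme that is activated by double-stranded RNA, and *Ifi44* a protein of the interferon response. In unirradiated mice the differences between the ages were 0.03, 0.49 and -0.32.

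*Zbp1* (probe A_55_P1994042, mm9 chr2:173039307-173039366) had levels of 0.35 to 1.37 in old irradiated mice, with a median of 0.94. In young irradiated mice its levels were 2.35 to 2.70, with a median of 2.57. Every old mouse lay below every young mouse, and the lowest levels were those of old replicates 4 and 6. *Zbp1* was 3.22-fold lower in old mice (log2 difference -1.69, SE 0.28, limma adjusted p = 0.0142). The difference was -1.45 without old replicates 4 and 6. The call was lost only when young irradiated replicate 3 was left out of the 12, and the difference stayed between -1.79 and -1.59 in these omissions. A second probe for *Zbp1* gave a difference of -1.48.

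*Oas1a* (probe A_55_P1998943, mm9 chr5:121346735-121346794) had levels of 1.62 to 2.90 in old (median 2.66) and 3.47 to 4.59 in young irradiated mice (median 4.16). The groups did not overlap, and the log2 difference was -1.64 (SE 0.35, limma adjusted p = 0.0453), or -1.27 without old replicates 4 and 6. This call is close to the threshold: among the 12 omissions of a mouse it held only without old irradiated replicate 6, although the difference stayed between -1.75 and -1.48. A second *Oas1a* probe had a difference of -1.56. *Ifi44* (probe A_51_P487690, mm9 chr3:151394035-151394094) lay at -5.05 to -3.97 in old mice (median -4.35) and at -2.93 to -1.74 in young mice (median -2.26). It was well above background in 4 of 6 old and 6 of 6 young mice, so it was dim in the old group. Its log2 difference was -2.19 (SE 0.33, limma adjusted p = 0.00913), or -1.93 without old replicates 4 and 6, and the call held in all 12 omissions of a mouse.

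Other called genes outside the list have related roles and were named after their values were seen. *Phf11d*, *Phf11a* and *Phf11b* are neighbouring genes of a PHD finger family on chromosome 14, *Mlkl* encodes the executioner of necroptosis, and *Batf2* a transcription factor induced by interferon. *Phf11d* had levels of -0.95 to 1.33 in old (median 0.39) and 2.06 to 3.27 in young irradiated mice (median 2.92). The log2 differences were -2.52 for *Phf11d* (adjusted p = 0.0177 by limma), -2.29 for *Phf11a* and -1.77 for *Phf11b*. All 6 old mice lay below all 6 young mice for each of them. The longest run that the probes of these 3 genes share is 22 bases of 60 (*Phf11d* and *Phf11a*), and signal from 1 transcript at another's probe was not tested. *Mlkl* lay at -3.05 to -1.99 in old (median -2.59) and at -1.67 to -0.28 in young irradiated mice (median -0.60), a log2 difference of -1.73 (limma adjusted p = 0.0289). *Batf2* lay at -2.90 to -1.89 in old and -1.30 to -0.12 in young irradiated mice, a log2 difference of -1.66 (limma adjusted p = 0.0224). In unirradiated mice the differences of *Phf11d*, *Phf11a*, *Phf11b* and *Mlkl* were -0.01, -0.11, -0.03 and -0.42, whereas *Batf2* was at -0.79. Without old irradiated replicates 4 and 6 the differences were -1.96 for *Phf11d*, -1.61 for *Mlkl* and -1.63 for *Batf2*. The calls of *Phf11d* and *Phf11a* held in 10 of 12 omissions of a mouse and were lost without old irradiated replicate 1 or young irradiated replicate 3, which was also so for *Phf11b* (6 of 12), *Batf2* (7 of 12) and *Mlkl* (4 of 12), each with other omissions.

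**Figure D1:**
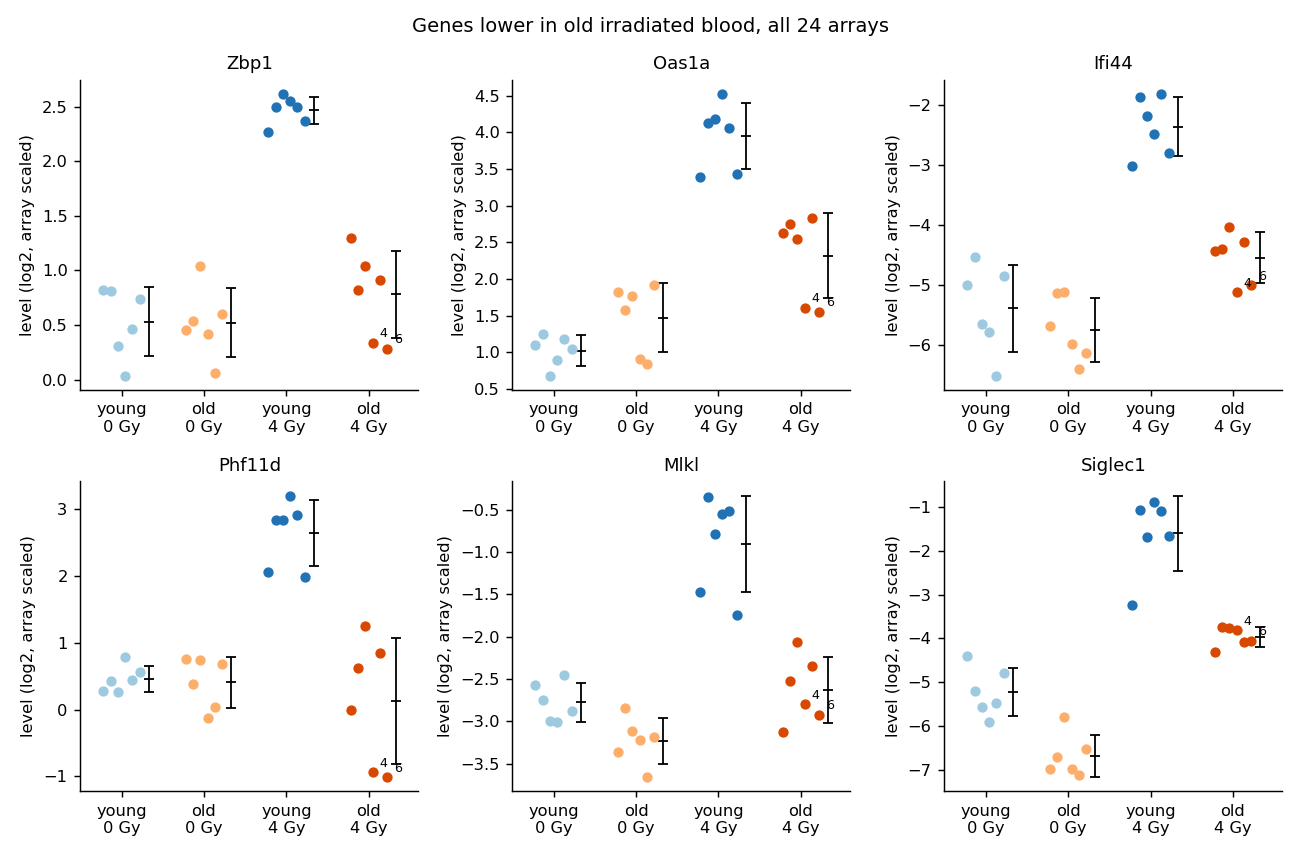
Log2 levels of 6 genes in every mouse of the 4 groups (vertical axis, relative to the median over spots well above background on all 24 arrays), with mean ± SD (n = 6) beside the points; old irradiated replicates 4 and 6 are numbered. For *Zbp1*, *Oas1a* and *Phf11d* the young irradiated mice lie above every other group, and the old irradiated mice lie at or nearer to the unirradiated levels.

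Upstream sequences are shown for the genes of this group that the promoter table holds, because members of a set that moves together can be read side by side. *Zbp1* and *Batf2* have no entry. Each line gives the 120 bases before the gene's start, 5′ to 3′ on the gene's strand, from RefSeq on GRCm38.p6. Capitals mark matches to a motif of GAAA, then any 2 bases, then GAAA, searched on both strands. It is the core of the element that interferon regulatory factors are known to bind. The lines are *Oas1a* at chr5:120907526-120907645, *Phf11a* at chr14:59297523-59297642, *Phf11b* at chr14:59341331-59341450, *Phf11d* at chr14:59365491-59365610, *Ifi44* at chr3:151749911-151750030 and *Mlkl* at chr8:111338206-111338325, all on the minus strand.
Oas1a: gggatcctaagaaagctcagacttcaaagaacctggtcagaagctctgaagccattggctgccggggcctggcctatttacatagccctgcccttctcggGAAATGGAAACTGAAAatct
Phf11a: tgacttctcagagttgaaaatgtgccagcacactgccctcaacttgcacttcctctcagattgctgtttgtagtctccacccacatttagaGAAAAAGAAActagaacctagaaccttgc
Phf11b: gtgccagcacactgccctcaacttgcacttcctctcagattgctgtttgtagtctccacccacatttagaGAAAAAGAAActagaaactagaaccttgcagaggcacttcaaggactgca
Phf11d: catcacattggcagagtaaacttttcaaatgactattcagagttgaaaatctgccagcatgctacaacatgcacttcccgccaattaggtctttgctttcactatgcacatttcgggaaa
Ifi44: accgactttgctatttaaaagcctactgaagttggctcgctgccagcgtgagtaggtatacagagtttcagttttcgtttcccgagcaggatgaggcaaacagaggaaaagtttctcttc
Mlkl: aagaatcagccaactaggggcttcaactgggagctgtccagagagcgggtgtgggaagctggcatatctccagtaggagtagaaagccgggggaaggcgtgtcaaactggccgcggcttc

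*Oas1a* holds 2 overlapping matches, starting at position -20 for the one farther from the gene. *Phf11a* and *Phf11b* hold 1 match each, at -29 and -50, within a run of 86 identical bases that both promoters share. *Phf11d*, *Ifi44* and *Mlkl* hold no match in the 250 bases searched, which says only that these letters are not in this window. A match is a description and not a binding site. Of all 27025 genes with a listed promoter, 3.46% hold the motif in these 250 bases, compared with 15 of 30 genes of the interferon list that have an entry (50%), 5 of 62 genes called lower (8.06%) and 1 of 19 called higher in old mice (5.26%).

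Across the whole interferon list, 41 of 42 genes passed the background filter and 32 were tested. Called were 3 of the 32, all lower in old mice, and 0 higher. At an unadjusted p below 0.05, 12 were lower and 0 higher, where 11.4% of all genes tested were lower and 6.38% higher. The ages did not overlap for 8 of the 32, all lower in old mice, beside 1.56% of all genes tested. The median difference of the 41 genes was -0.55, with 34 below 0, compared with -0.06 over all genes and 0.19 for the same list in unirradiated mice. The list's median stayed below 0 under each scaling tried (-0.81 to -0.28), and it was -0.24 without old replicates 4 and 6, where 7 of the 32 were called lower and 0 higher, beside 19.2% and 6.54% of all genes tested.

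Among members of the list that were not called, the Mx family genes *Mx1* and *Mx2* did not overlap between the ages. *Mx1* lay at -1.60 to -0.24 in old and 0.40 to 0.61 in young irradiated mice (log2 difference -1.28, limma adjusted p = 0.0612), and *Mx2* had a log2 difference of -2.12 (limma adjusted p = 0.0704). *Ifi27l2a*, among the list's strongest signals, lay at 3.61 to 5.89 in old and 6.44 to 7.04 in young irradiated mice (log2 difference -1.77, limma adjusted p = 0.0634). Other members with strong signal showed no such separation. *Isg15*, a ubiquitin-like modifier, had levels of 3.51 to 8.53 in old and 4.61 to 6.38 in young irradiated mice (log2 difference -0.20, limma adjusted p = 0.936), and *Isg20*, an exonuclease, had a log2 difference of 0.14. The range of *Isg15* in old mice was set by replicates 4 and 6: without them its log2 difference was -1.64 and it was called (limma adjusted p = 0.00837). *Mx1* and *Mx2*, like the *Phf11* genes, were named after their values were seen.

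Whether an age difference after radiation differed from that in unirradiated mice was tested as the interaction of age and radiation over all 24 arrays. Of 14583 genes, 8 were called (0.0549%), and 2938 had an unadjusted p below 0.05. *Zbp1* and *Oas1a* were the only called genes that the lists hold, and *Phf11d* was also among the 8. On the scale of all 24 arrays, *Zbp1* had mean levels of 0.53 in young unirradiated, 2.47 in young irradiated, 0.52 in old unirradiated and 0.78 in old irradiated mice. The interaction was -1.67 for *Zbp1* (SE 0.29, limma adjusted p = 0.0331), -2.08 for *Oas1a* (SE 0.38, limma adjusted p = 0.0395) and -2.46 for *Phf11d* (SE 0.47, limma adjusted p = 0.0477). *Oas1a* had mean levels of 1.02 in young unirradiated and 3.95 in young irradiated mice, but 1.47 in old unirradiated and 2.32 in old irradiated mice. *Ms4a6d*, a membrane protein of macrophages and monocytes, had means of -2.56 and -0.40 in young unirradiated and irradiated mice and of -1.18 and -1.74 in old mice, an interaction of -2.73 (limma adjusted p = 0.0477). The remaining 4 of the 8 had interactions above 0: *Kcnmb4*, *Lypd6b*, *Olfr469* and the transcript ENSMUST00000103599, of which none was well above background in all 4 groups. No gene was called in the interaction with the median of all spots as the scale, while *Zbp1* and *Oas1a* were called with the 75th percentile and with quantile normalization. The count of 8 was 0 to 22 with any single array left out, except for 376 without old irradiated replicate 3, and 28 without old irradiated replicates 4 and 6. The interaction stayed called in 13 of these 24 omissions for *Zbp1*, in 8 for *Oas1a*, in 7 for *Phf11d* and in 6 for *Ms4a6d*, so these calls are close to the threshold. *Ms4a6d* and *Phf11d* were named after their values were seen.

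Genes of tissue macrophages had lower mean levels in old irradiated mice in 16 of 20 cases. Of 23 markers, 20 passed the background filter and all 20 were tested. Called were 1 lower and 0 higher, beside 0.820% and 0.195% of all genes tested. At an unadjusted p below 0.05 there were 12 lower and 0 higher, beside 11.4% and 6.38%. The median difference was -2.26, against -0.35 for the same list in unirradiated mice. With normexp correction it shrank to -0.89 in irradiated mice. The called gene was *Siglec1* (probe A_55_P1954648, mm9 chr2:130895093-130895152), a sialic acid receptor of macrophages that interferon also induces. Its levels were -4.24 to -3.66 in old (median -3.86) and -3.16 to -0.82 in young irradiated mice (median -1.30), without overlap. It was well above background in 4 of 6 old and 6 of 6 young mice, and the log2 difference was -2.36 (SE 0.39, limma adjusted p = 0.0142) or -2.37 without old replicates 4 and 6. The call was lost without young irradiated replicate 3, where the difference lay within -2.68 to -2.22, the range over the 12 omissions. This probe of *Siglec1* was also lower in old mice without radiation. On the scale of the whole series its mean was -6.68 in old and -5.22 in young unirradiated mice. After radiation these means were -3.96 and -1.60. The unirradiated levels were dim, with signal well above background in 0 of 6 mice of each age. The interaction was -0.89 and was not called (limma adjusted p = 0.272).

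The other macrophage markers differed strongly among mice of an age and were not called from age alone. *Cd5l*, a secreted protein of tissue macrophages, lay at -4.42 to 5.25 in old and 3.83 to 6.02 in young irradiated mice (log2 difference -3.76, limma adjusted p = 0.183). *Marco*, a scavenger receptor, lay at -4.48 to 3.64 in old and 3.10 to 5.30 in young irradiated mice (log2 difference -3.75, limma adjusted p = 0.133). *C1qa*, *C1qc*, *Vsig4* and *Timd4*, which serve uptake of opsonised or dying cells, had log2 differences of -3.27, -3.43, -3.64 and -3.16, with 0 of them called. *Apoe* and *Ctsb*, the members with the strongest signal beside *Cd5l*, had log2 differences of -1.21 and -0.03. The mean level of the list was -2.45, 0.56, 1.46, -1.22, 0.86 and -1.19 in old irradiated replicates 1 to 6 and between 0.55 and 1.96 in young irradiated mice. The 3 low values were those of replicates 1, 4 and 6, whose hepatocyte marker means were also below 0, and the other 3 lay within the range of the young mice. With the hepatocyte marker mean of each array as a covariate, the list's median difference was -2.22, and 10 of the 20 markers were called lower, beside 3.98% of all genes tested in that fit. These were *Siglec1*, *Marco*, *Cd5l*, *C1qa*, *C1qc*, *Vsig4*, *Timd4*, *C1qb*, *Mertk* and *Adgre1*. Without old replicates 4 and 6 the median was -1.52, with 2 markers called lower and 1 higher, beside 19.2% and 6.54% of all genes tested. *Marco*, *C1qa*, *C1qb*, *C1qc*, *Vsig4*, *Timd4*, *Mertk* and *Adgre1* were named after their values were seen.

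Genes of antigen presentation on MHC class II had a median difference of -0.91, with 15 of 17 below 0. Of the 17, 0 were called. At an unadjusted p below 0.05, 4 were lower and 0 higher, beside 11.4% and 6.38% of all genes tested. *H2-Ab1*, a class II chain, lay at 2.28 to 6.05 in old and 4.56 to 6.14 in young irradiated mice (log2 difference -0.97, limma adjusted p = 0.415). The lowest list means were those of old replicates 4 and 6 (-1.65 and -1.52), and without these mice the median was -0.07, with 0 called. For B cell markers the median was -1.03 (16 of 21 below 0, 0 called of 18 tested). Without old replicates 4 and 6 it was -0.41, with 1 called higher and 1 lower, beside 6.54% and 19.2% of all genes tested. In unirradiated mice the medians of these lists were 0.29 and 0.12. With normexp correction the medians in irradiated mice were -0.45 for class II genes and -0.25 for B cell markers.

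**Figure D2:**
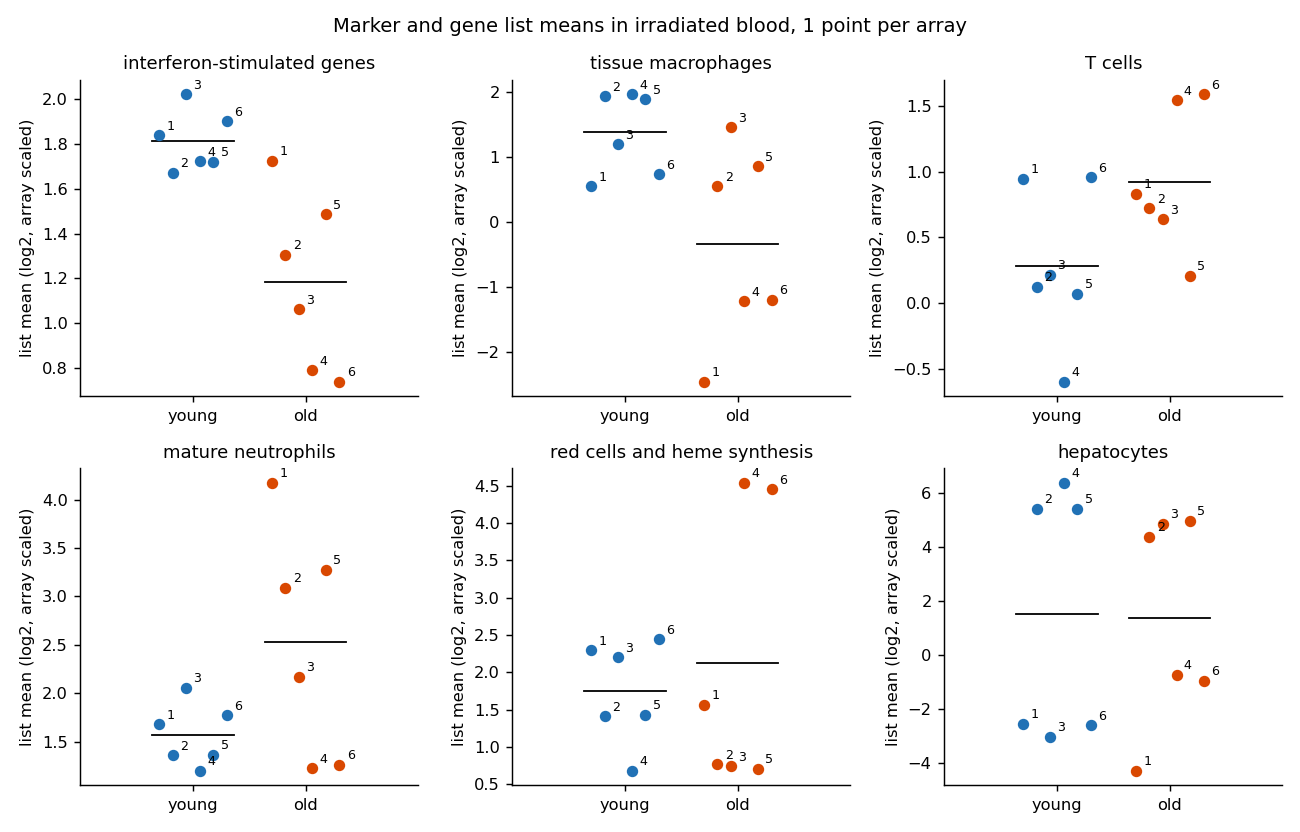
Mean log2 level of 6 gene lists in each irradiated mouse (vertical axis, array scaled), with replicate numbers beside the points and a line at the group mean. Interferon-stimulated genes lie at 1.67 to 2.02 in young mice, with 5 of 6 old mice lower; old replicates 4 and 6 are the highest for red cell genes, and hepatocyte markers are high in 3 mice of each age.

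T cell genes had higher mean levels in old irradiated mice in 19 of 23 cases. *Cd8a*, a chain of the co-receptor of cytotoxic T cells, was called among 21 tested T cell genes (0 were called lower). At an unadjusted p below 0.05, 9 of the 21 were higher and 1 was lower, beside 6.38% and 11.4% of all genes tested. The median difference was 0.68, compared with -0.10 in unirradiated mice, and it stayed above 0 under each scaling tried (0.42 to 0.95). Without old replicates 4 and 6 it was 0.46, and of the 21 genes 1 was called higher and 2 lower (*Cd4* and *Ubash3a*), beside 6.54% and 19.2% of all genes tested.

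*Cd8a* (probe A_52_P443334, mm9 chr6:71328911-71328970) had levels of -1.24 to 1.17 in old (median -0.73) and -4.35 to -2.19 in young irradiated mice (median -2.73). No old mouse was as low as any young mouse, and old replicates 4 and 6 were the highest. *Cd8a* was 6.21-fold higher in old mice (log2 difference 2.64, SE 0.53, limma adjusted p = 0.0344). The log2 difference was 1.92 without old replicates 4 and 6 (limma adjusted p = 0.00337). The call held in 3 of 12 omissions of a mouse, those of old irradiated replicates 4, 5 and 6, and the difference stayed between 2.35 and 2.83 in all 12. A second probe gave a difference of 2.50. On the scale of all 24 arrays the mean level of *Cd8a* was -0.17 in young unirradiated, -2.98 in young irradiated, -0.06 in old unirradiated and -0.34 in old irradiated mice, but the interaction was not called (limma adjusted p = 0.112).

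*Il7r*, which encodes the receptor chain through which IL-7 sustains resting T cells, lay at 0.36 to 0.99 in old (median 0.81) and -1.70 to -0.45 in young irradiated mice (median -1.10). These ranges did not overlap, and the log2 difference was 1.75 (SE 0.31, limma adjusted p = 0.0194), or 1.93 without old replicates 4 and 6. Its call was lost without old irradiated replicate 1 or 5 and without young irradiated replicate 2 or 3. *Cd4*, the co-receptor of helper T cells, went the other way, with levels of 0.92 to 3.20 in old and 2.50 to 3.78 in young irradiated mice (log2 difference -1.23, limma adjusted p = 0.199), and in unirradiated mice its difference was -2.11. *Lat*, an adaptor of the T cell receptor, did not overlap between the ages (1.46 to 2.45 in old, 0.15 to 1.42 in young) and had a log2 difference of 0.99 (limma adjusted p = 0.154). The kinase *Lck* and the surface protein *Thy1*, with the strongest signals of the list, had log2 differences of 0.58 and 0.96 and were not called. Genes of naive T cells and lymph node homing, a separate list, had a median difference of -0.04, with 6 above 0 and 8 below. Of 11 tested, 1 was called higher and 0 lower, beside 0.195% and 0.820% of all genes tested. Without old replicates 4 and 6 the median was 0.45, with 3 called higher and 0 lower, beside 6.54% and 19.2%. *Cd4*, *Lat* and *Ubash3a* were named after their values were seen.

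*Gzmk*, a granzyme of experienced CD8 T cells, was called higher in old irradiated mice, but its probes disagree. The probe with the brighter mean (A_55_P2042331, mm9 chr13:113961816-113961875), which the array assigns to an Ensembl transcript, lay at -1.48 to 2.29 in old (median -0.17) and -5.25 to -2.11 in young irradiated mice (median -2.31). Its log2 difference was 3.33 (SE 0.72, limma adjusted p = 0.0473), and this call held in 2 of 12 omissions of a mouse, those of old irradiated replicates 5 and 6. The other probe, assigned to the RefSeq transcript and well above background on all 12 arrays, had a log2 difference of -0.98. The direction of *Gzmk* therefore rests on the choice of probe. Of 18 tested genes of effector and checkpoint T cells, 7 were higher and 0 lower at an unadjusted p below 0.05, beside 6.38% and 11.4% of all genes tested. *Gzmk* was the only called gene among them. *Ccl5*, the list's strongest signal, lay at 6.15 to 8.67 in old and 4.57 to 6.72 in young irradiated mice (log2 difference 1.24, limma adjusted p = 0.259), and its difference in unirradiated mice was 1.07. The median of the list was 0.45, with 18 of 21 above 0, and 0.38 in unirradiated mice.

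**Figure D3:**
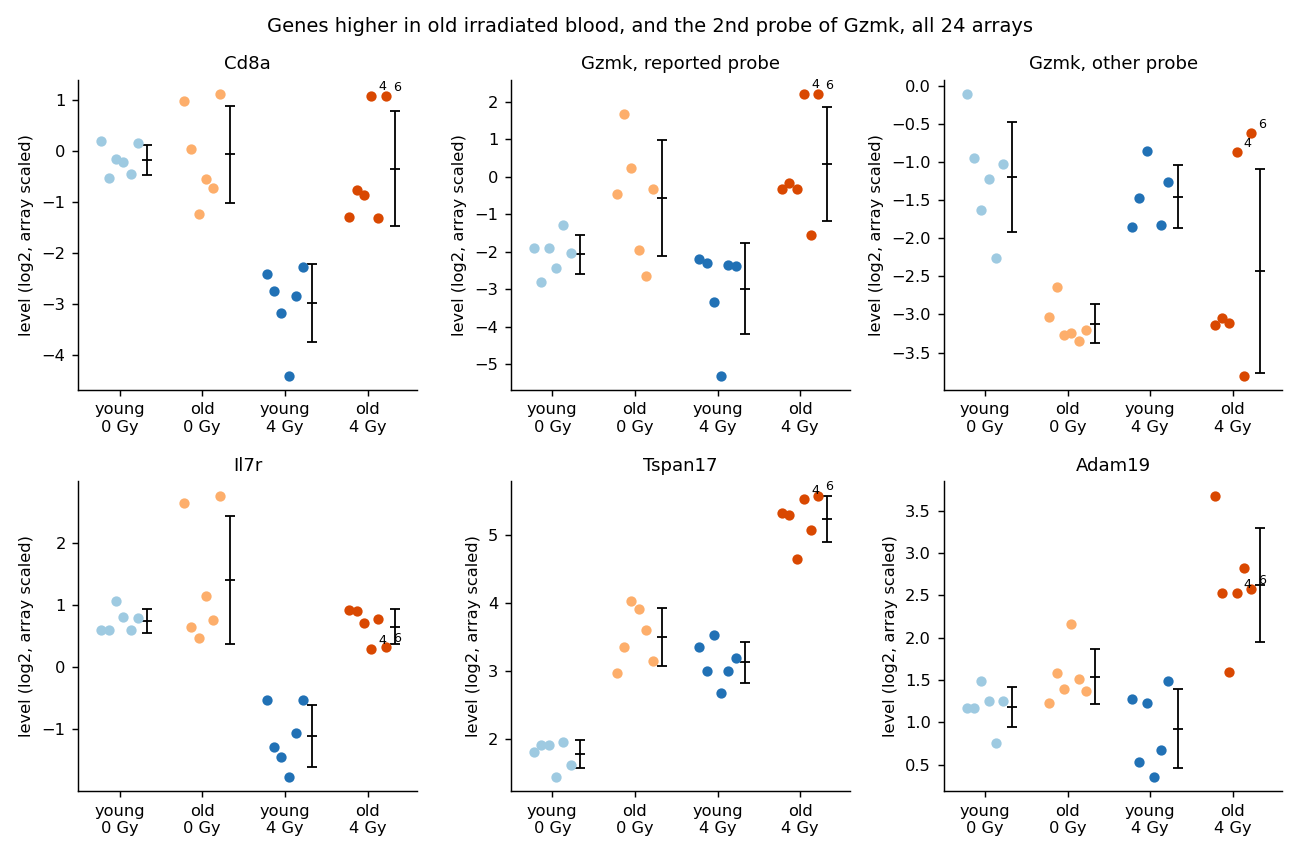
Log2 levels of 5 genes called higher in old irradiated mice, and of the other *Gzmk* probe, in the mice of the 4 groups (vertical axis, relative to the median over spots well above background on all 24 arrays), with mean ± SD beside the points; n = 6, except n = 5 for the other *Gzmk* probe in young irradiated mice. *Cd8a* is low in young irradiated mice alone, *Tspan17* is higher in old mice with and without radiation, and the *Gzmk* probes differ in direction.

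The other genes called higher in old irradiated mice do not form a group fixed in a list. Those with strong signal included *Tspan17*, a tetraspanin that binds the protease ADAM10, which lay at 4.72 to 5.64 in old and 2.74 to 3.62 in young irradiated mice. Its log2 difference was 2.11 (SE 0.29, limma adjusted p = 0.00534), a second probe gave 2.57, and the difference was 1.77 in unirradiated mice. *Tm4sf1*, a membrane protein with 4 transmembrane segments, lay at 2.16 to 2.96 in old and -1.37 to -0.33 in young irradiated mice (log2 difference 3.14, SE 0.30, limma adjusted p = 0.000612), and at a log2 difference of 2.96 in unirradiated mice. Both calls held in all 12 omissions of a mouse, and both genes were also called higher in unirradiated old mice. *Adam19*, a metalloprotease, lay at 1.66 to 3.75 in old and 0.41 to 1.57 in young irradiated mice (log2 difference 1.69, SE 0.37, limma adjusted p = 0.0485), with a difference of 0.40 in unirradiated mice. That call held in 2 omissions only, of old irradiated replicate 3 or 6. *Adgrg3*, an adhesion receptor of granulocytes, lay at -0.32 to 1.40 in old and -2.02 to -0.79 in young irradiated mice (log2 difference 2.03, SE 0.38, limma adjusted p = 0.0249). Its call was lost without old irradiated replicate 1 or 5 and without young irradiated replicate 2, 3, 4 or 5.

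*Nbea*, a protein of vesicle transport, was well above background in 6 of 6 old and 0 of 6 young irradiated mice. It was at least 4.94-fold higher in old mice (limma adjusted p = 0.000612), a bound that sets the old mean against the dimmest signal that counted as well above background on each young array. Its call held in all 12 omissions. *Hdgfl3*, *Gabbr1*, *Gm31035*, *Kiss1r*, *1110046J04Rik*, *2010016I18Rik* and *Cpeb2* were also called higher, with log2 differences between 1.42 (*Cpeb2*) and 2.45 (*Hdgfl3*). For *Gabbr1*, a GABA receptor subunit, 2 other probes with weaker signal had differences of -0.13 and -0.16. In unirradiated mice the difference was 0.06 for *2010016I18Rik* and 0.94 to 1.71 for *Hdgfl3*, *Gabbr1*, *Gm31035*, *Kiss1r*, *1110046J04Rik* and *Cpeb2*.

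Genes with the largest differences in the other direction were mostly dim in old irradiated mice, and most were lower in unirradiated old mice as well. *Crnn*, a protein of stratified epithelium, and *Dlx6*, a homeobox factor, were well above background in 0 of 6 old and 6 of 6 young irradiated mice. They were at least 6.77-fold and 4.91-fold lower in old mice (limma adjusted p = 0.00534 and 0.0160), and the call of *Dlx6* was lost without young irradiated replicate 3. *Plxdc2*, a receptor of the plexin domain family and the brightest of this group, lay at -1.30 to 2.40 in old (median 0.78) and 2.67 to 4.86 in young irradiated mice (median 4.13). Its log2 difference was -3.11 (SE 0.61, limma adjusted p = 0.0288), a second probe gave -2.29, and the difference in unirradiated mice was -2.24. The call of *Plxdc2* was lost without old irradiated replicate 1 or 2 and without young irradiated replicate 2, 3, 4 or 5. *BC051226* lay nearer to 0 in unirradiated mice: its log2 difference was -3.13 in irradiated mice (limma adjusted p = 0.0160) and -0.30 in unirradiated mice. Its call was lost without young irradiated replicate 3.

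Those 4 are among the 15 largest differences below 0 of genes with a symbol, no overlap and signal well above background on all 6 arrays of an age. The other 11 were *Ston1*, *Tmprss4*, *Plet1*, *4930463O16Rik*, *Nox1*, *Eps8l2*, *Arhgef19*, *Gsg1*, *6820408C15Rik*, *Snhg20* and *Olfr122*, with log2 differences between -3.33 (*Ston1*) and -2.71 (*Olfr122*). For *Nox1*, an NADPH oxidase, and for *Arhgef19*, other probes with weaker signal had differences of 0.55 and 0.08. Of the called genes, 8 had another probe that was well above background on all 6 arrays of an age, and that probe had the same direction for 5 and the opposite direction for 3.

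Beside the unirradiated mice, the genes called lower after radiation were in the main also lower without it. Of the 105 genes called lower, 80 were tested in unirradiated mice and 65 were called there in the same direction, which is 61.9% of the 105 and 1.73% of the 3757 genes called lower in unirradiated old mice. Of the 25 called higher, 18 were tested and 10 were called in the same direction (40% of the 25, and 1.64% of the 608 called higher). None was called in the opposite direction. These shares stand beside 3757 genes called lower and 608 called higher of all 8378 tested in unirradiated mice. In both comparisons scan day and slide differ with age, so a difference shared by the 2 comparisons cannot be told apart from them. The split in unirradiated mice depended on the scaling too: the share higher among called genes was 13.9% here, 71.3% with the median of all spots (6001 higher and 2416 lower) and 35.6% with quantile normalization. In unirradiated mice 4365 of 8378 genes were called (52.1%), and the median difference there was -1.94 for the genes called lower and 1.01 for those called higher after radiation. *Zbp1*, *Oas1a*, *Phf11d*, *Phf11a*, *Mlkl*, *Ifi44* and *Cd8a* had differences between -0.42 and 0.49 in unirradiated mice.

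**Figure D4:**
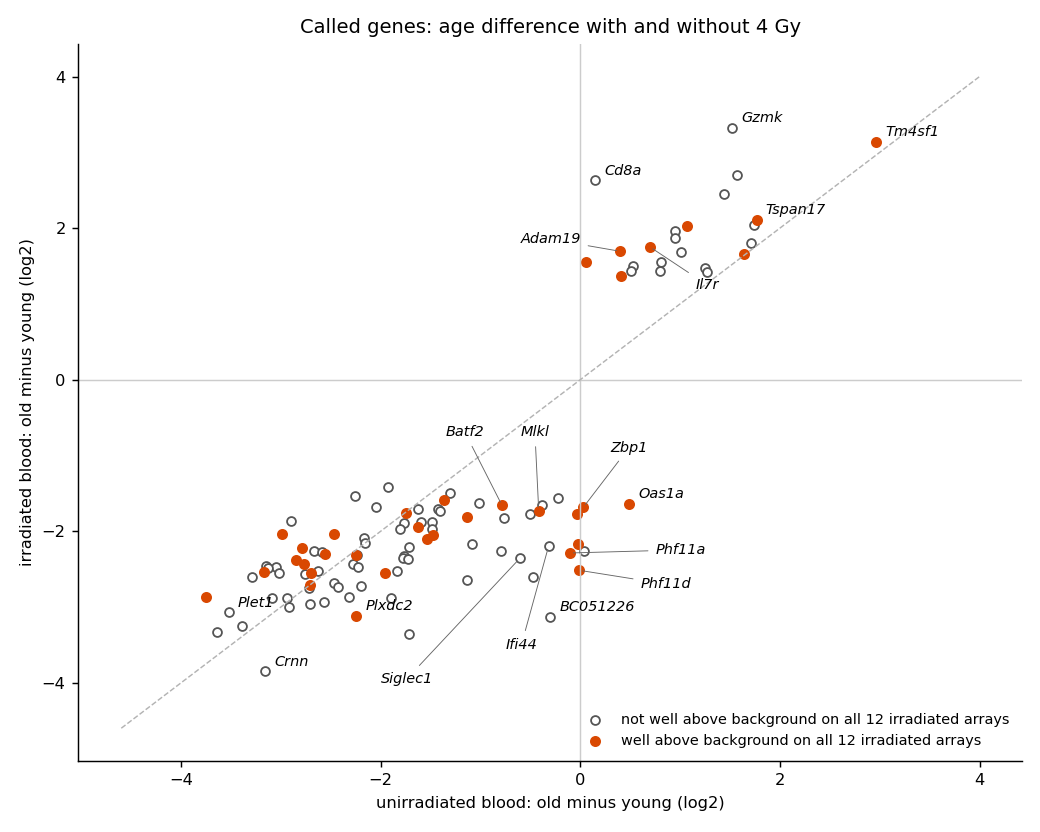
Old minus young log2 difference of 111 called genes that passed the background filter in both comparisons, in unirradiated mice (horizontal axis) and irradiated mice (vertical axis). Filled points are the 35 genes well above background on all 12 irradiated arrays, the dashed line marks equal differences, and *Zbp1*, *Oas1a*, *Phf11a*, *Phf11d* and *Cd8a* lie between -0.11 and 0.49 on the horizontal axis.

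Markers of mature neutrophils had higher mean levels in old irradiated mice in 20 of 22 cases, with a median difference of 1.14, and of 1.38 in unirradiated mice. With 12 mice, 0 of the 22 tested were called. At an unadjusted p below 0.05, 12 were higher and 1 lower, beside 6.38% and 11.4% of all genes tested. Old replicates 4 and 6 had the lowest list means of the old mice (1.23 and 1.26), and without them 16 of the 22 were called higher and 1 lower, beside 6.54% and 19.2% of all genes tested. *Stfa2l1*, a stefin of neutrophils, did not overlap between the ages, at 2.19 to 5.05 in old and 0.58 to 2.05 in young irradiated mice (log2 difference 1.96, limma adjusted p = 0.0890). *Csf3r*, the receptor of granulocyte colony-stimulating factor, lay at 4.94 to 6.48 in old and 4.23 to 4.81 in young irradiated mice (log2 difference 0.94, limma adjusted p = 0.180). *S100a9* and *S100a8*, the alarmins with the strongest signals of the list, had log2 differences of 0.41 and 0.83. *Stfa2l1* was named after its values were seen.

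All 24 platelet and megakaryocyte genes had differences above 0 in irradiated mice, with a median of 0.70 and 0 called of 17 tested. At an unadjusted p below 0.05, 5 were higher and 0 lower, beside 6.38% and 11.4% of all genes tested. *Gp1bb*, a subunit of the von Willebrand factor receptor, had the largest of these 5 differences (levels 4.07 to 6.13 in old and 1.68 to 4.36 in young, limma adjusted p = 0.144). *Pf4* and *Ppbp*, granule chemokines of platelets, had log2 differences of 0.25 and 0.73. The median of the platelet list was 0.48 in unirradiated mice, and in irradiated mice it was 0.28 to 0.97 over the scalings. Without old replicates 4 and 6 it was 0.48 with 0 called, beside 6.54% higher and 19.2% lower of all genes tested. For red cell and heme genes the median difference was 0.41 with 0 of 25 called, and it turned to -0.998 without old replicates 4 and 6, where 8 of the 25 were called lower and 0 higher, beside 19.2% and 6.54% of all genes tested. Natural killer and cytotoxic genes had a median of -0.43, with 0 of 21 called. At an unadjusted p below 0.05, 6 were lower and 1 higher, beside 11.4% and 6.38% of all genes tested. *Gzma* had a log2 difference of -1.51 (levels 3.98 to 5.63 in old and 5.41 to 7.18 in young, limma adjusted p = 0.116), close to its difference of -1.61 in unirradiated mice. *Gp1bb* was named after its values were seen.

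**Figure D5:**
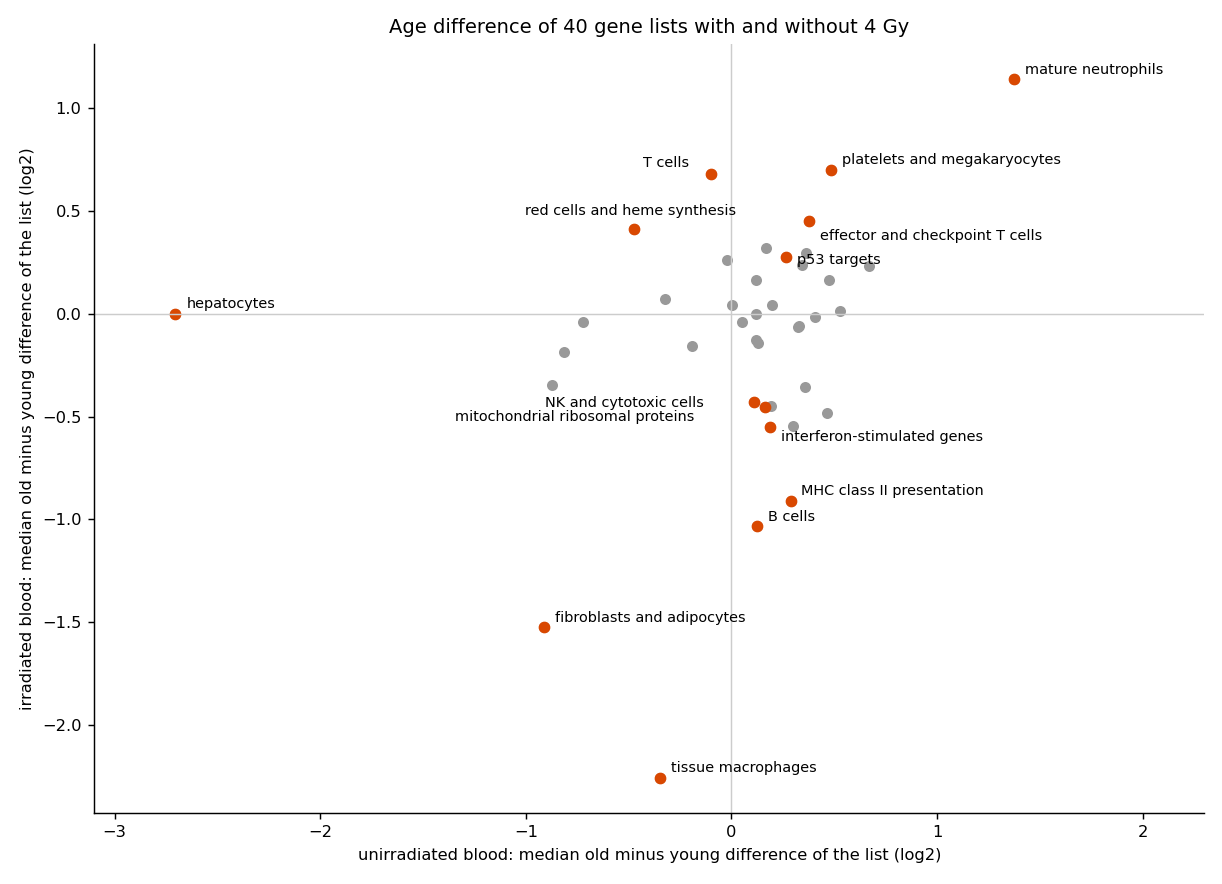
Median old minus young log2 difference of each of 40 gene lists in unirradiated mice (horizontal axis) and irradiated mice (vertical axis), 1 point per list with 14 labelled. Mature neutrophils (1.38 and 1.14) lie above 0 on both axes, tissue macrophages (-0.35 and -2.26) lie lowest in irradiated mice, and hepatocyte markers (-2.70 and 0.00) lie lowest in unirradiated mice.

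Among the 12 mice, no target of p53 was called between the ages after radiation. Of 22 tested, 2 were higher and 0 lower at an unadjusted p below 0.05, beside 6.38% and 11.4% of all genes tested. The median was 0.27 over 34 genes, the same value as in unirradiated mice. The median was 0.15 without old replicates 4 and 6, where 4 of the 22 were called higher and 0 lower, beside 6.54% and 19.2% of all genes tested. These were *Xpc* (1.99), *Fas* (1.11), *Ddb2* (0.99) and *Btg2* (0.88), and with the hepatocyte covariate *Ddb2* was called. *Ddb2*, a sensor of ultraviolet damage, did not overlap between the ages, at -2.15 to -1.63 in old and -3.14 to -2.41 in young irradiated mice (log2 difference 0.90, limma adjusted p = 0.129). *Cdkn1a*, which encodes the p21 inhibitor of the cell cycle, lay at -0.09 to 1.44 in old and 0.25 to 1.76 in young irradiated mice (log2 difference -0.44, limma adjusted p = 0.560), while 2 other probes had differences of 0.48 and 0.65. The ranges of *Phlda3* (2.20 to 3.33 and 2.56 to 2.75) and *Bax* (2.08 to 2.73 and 2.22 to 2.79) overlapped. Neither entered the limma test, because too few arrays lay 1.5-fold from the gene's median, and the exact permutation test gave p = 0.606 and 0.634. In unirradiated mice *Phlda3* was called higher in old mice, with a log2 difference of 0.91 (limma adjusted p = 0.00181). *Ddb2*, *Xpc* and *Btg2* were named after their values were seen.

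Of the genes that the study's text names for the ages, 19 with roles in apoptosis, clearance of dying cells, growth signaling or transcription were followed, and all passed the background filter. *Bax*, *Bak1* and *Phlda3* did not enter limma's test, and of the other 16 none was called among the 12 mice. With the hepatocyte covariate *Axl*, *Fgfr1*, *Erbb2* and *Egfr* were called lower, with limma adjusted p of 0.0292, 0.0177, 0.0323 and 0.0203. In that fit 3.98% of all genes tested were called lower and 1.28% higher. Without old replicates 4 and 6, 5 of the 16 were called, 3 of them higher and 2 lower, as given for each below. Of all genes tested, 6.54% were called higher and 19.2% lower without these mice. The exact permutation test, two-sided, gave unadjusted p between 0.00649 (*Axl*) and 0.0455 (*Egfr*) for 7 of these 19 tests. With Benjamini-Hochberg adjustment over the 19 tests the smallest permutation p was 0.0823, so none passed 0.05. *Axl*, a receptor for the uptake of dying cells, lay at -4.88 to -1.25 in old (median -2.45) and -1.41 to -0.28 in young irradiated mice (median -0.74). Its log2 difference was -1.98 (SE 0.53, limma adjusted p = 0.0997), and in unirradiated mice it was -0.09, but the interaction was not called (limma adjusted p = 0.148). Without old replicates 4 and 6 *Axl* was called, with a difference of -1.24 (limma adjusted p = 0.0128). *Gas6*, a ligand of Axl, had a log2 difference of -1.38 with levels of -3.24 to 0.49 in old and -1.80 to 1.32 in young irradiated mice (limma adjusted p = 0.351).

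Of the growth factor receptors, *Erbb2* had a log2 difference of -1.96 (limma adjusted p = 0.115) and *Egfr* of -1.79 (limma adjusted p = 0.240), and both were lower in unirradiated old mice too (-2.57 and -3.07). *Erbb2*, but not *Egfr*, was called without old replicates 4 and 6, with a difference of -2.66 (limma adjusted p = 0.00118). *Fgfr1* had a log2 difference of -3.70, with levels of -3.68 to 3.07 in old and 1.71 to 4.05 in young irradiated mice (limma adjusted p = 0.131), but its 2 other probes had -0.47 and -1.53. *Adam10*, *Bak1* and *Bcl11b* had log2 differences of 0.64, -0.51 and 0.86 with exact permutation p = 0.0216, 0.0216 and 0.0303, not adjusted for the 19 tests. *Trem2*, *Tyrobp*, *Bbc3*, *Fas*, *Fasl*, *Bcl3*, *Bcl6* and *Bcl9* had exact permutation p between 0.167 and 0.933, and their log2 differences were -0.37 to 0.87. These values depended on old replicates 4 and 6: without them *Bcl6*, *Bcl3* and *Fas* were called higher, with log2 differences of 1.62, 1.46 and 1.11 (limma adjusted p = 0.00824, 0.00610 and 0.00454). In unirradiated mice *Trem2* and *Fas* were already called higher in old mice, at 1.11 and 0.86 (limma adjusted p = 0.00348 and 0.00245). The rest of these genes were not called there. Genes of apoptosis had a median difference of -0.06 (-0.32 to 0.21 over the scalings, so with no settled direction), with 0 of 19 called. At an unadjusted p below 0.05, 2 were lower and 0 higher, beside 11.4% and 6.38% of all genes tested. Their median was 0.24 without old replicates 4 and 6, where *Tnfrsf1a*, *Mcl1* and *Birc3* were called higher and 0 lower of the 19, beside 6.54% and 19.2% of all genes tested, while *Ripk3* was called lower with the hepatocyte covariate. Genes of phagocytosis and efferocytosis had a median difference of -0.02 (-0.28 to 0.26 over the scalings), with 0 of 31 called. At an unadjusted p below 0.05, 6 were lower and 1 higher, beside 11.4% and 6.38% of all genes tested. Without old replicates 4 and 6 their median was 0.18, and 4 were called higher (*Clec7a*, *Anxa1*, *Sirpa* and *Rac2*) and 4 lower (*Axl*, *Fcgr1*, *Jmjd6* and *Cd36*) of the 31, beside 6.54% and 19.2% of all genes tested. With the hepatocyte covariate 4 were called lower (*Msr1*, *Mertk*, *Axl* and *Mfge8*) and 0 higher, beside 3.98% and 1.28% of all genes tested in that fit. *Fcgr1*, the high-affinity Fc receptor, did not overlap between the ages, at -5.39 to -1.62 in old and -1.16 to -0.78 in young irradiated mice (log2 difference -2.09, limma adjusted p = 0.112), and, like the members called only without these mice or with the covariate, was named after its values were seen.

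Markers of tissues other than blood varied strongly among mice of an age. The mean level of hepatocyte markers (34 of 40 past the background filter) was 4.38, 4.87 and 4.98 in old irradiated replicates 2, 3 and 5 and -4.27 to -0.73 in the other 3, and 5.42, 6.38 and 5.42 in young irradiated replicates 2, 4 and 5 and -3.02 to -2.53 in the other 3. *Alb*, the albumin gene, lay at -7.11 to 8.03 in old and -5.03 to 8.21 in young irradiated mice. High and low mice occurred 3 and 3 in each age, and the list's median difference was 0.00 (-0.26 to 0.27 over the scalings) with 0 of 34 called; without old replicates 4 and 6 it was 1.17, again with 0 called. With the hepatocyte marker mean as a covariate, 674 genes were called, 164 of them higher in old mice, and all 130 genes were among them, *Zbp1*, *Oas1a*, *Ifi44*, *Siglec1* and *Cd8a* included. Markers of fibroblasts and adipocytes were lower in old irradiated mice in 12 of 13 cases, with a median of -1.52, compared with -0.91 in unirradiated mice. With normexp correction the median in irradiated mice was -0.61. Of the 13, 0 were called and 6 were lower at an unadjusted p below 0.05, beside 11.4% of all genes tested. Without old replicates 4 and 6, 2 were called lower, beside 19.2% of all genes tested. With the covariate 4 were called lower, beside 3.98%. The mean of this list was -3.84 to -2.95 in old and -2.93 to -1.05 in young irradiated mice. The part of such tissue RNA in the differences of single genes was not tested.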

How the data were processed

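Blood RNA of 24 mice was hybridised to single-colour Agilent arrays, and the deposited intensities are Feature Extraction 12.0.2 processed signals, which the authors' scanner software had background-subtracted without normalization between arrays. The log2 values of the authors' own table (17190 probes, 17166 matched) served only as an alternative. Here log2 intensities of non-uniform spots were left out and each array was centred on its median over 15640 spots. Probes non-uniform or not above background in at least 25% of arrays were dropped, the probe with the highest mean was kept per gene (18363 genes), and genes 1.5-fold from their median in at least 20% of arrays were tested (12812) with limma 3.58.1 in R 4.3.3. The study's genes were also tested by exact permutation. The interaction used all 24 arrays. On simulated data with 200 changed genes of 12803, the test recovered 0% at a log2 change of 1 and 37.0% at 2, and called 4 unchanged genes. Members, lists and thresholds were chosen with earlier results of these data known. Named genes were the 15 largest called differences each way, the study's genes and, per list, called genes and those with the strongest signal. Alternatives covered scaling, background correction, filters, probe choice, variance model, slide, replicate number and omission of arrays. Array number limits the precision. Promoters came from RefSeq on GRCm38.p6, and probe positions are mm9.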

Additional observations from a re-analysis of the deposited data

Results flagged for a closer look

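The test for a single mouse apart from its group was applied to 142 groups of 6, and chance flags about 1 in 20. The values in this paragraph are the gap to the nearest mouse as a share of the group's range. Young irradiated replicate 4 was the lowest for *Gzmk* (0.633), *Hdgfl3* (0.643), *Gm31035* (0.737) and *Kiss1r* (0.699), and for the mean levels of monocyte markers (0.781) and platelet and megakaryocyte genes (0.687). The same mouse was the highest for *BC051226* (0.631) and for the mean level of MHC class II genes (0.738). Young irradiated replicate 1 was the lowest for *Siglec1* (0.671, at a level of -3.16). Old irradiated replicate 5 was the lowest for *Fasl* (0.652) and *4930463O16Rik* (0.634), and old irradiated replicate 1 for *Myh7* (0.774).

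The age difference in irradiated mice minus that in unirradiated mice passed the interaction test for 8 genes. It was -1.67 for *Zbp1*, -2.08 for *Oas1a*, -2.46 for *Phf11d*, -2.73 for *Ms4a6d*, 1.75 for the transcript ENSMUST00000103599, 2.74 for *Kcnmb4*, 3.03 for *Lypd6b* and 2.79 for *Olfr469*. The last 4 values give no size of effect: *Kcnmb4* and *Lypd6b* were well above background in 0 of 6 young irradiated mice, *Olfr469* in 0 of 6 old unirradiated mice, and the transcript ENSMUST00000103599 in 2 of 6 young irradiated mice.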

How the results depend on the processing

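The 130 calls became 228 with spike-in spots, 2 with normexp correction, 42 with the authors' deposited values, 23 with only probes well above background on all 12 arrays, 63 with no filter on dim probes, 196 with no 1.5-fold filter, 4163 with array quality weights, 1294 with the slide as a block, 1564 with 1 fit of all 24 arrays, 674 with the hepatocyte covariate and 3297 without old irradiated replicates 4 and 6. The last 2 were chosen after seeing the data. With normexp correction the calls were 2 higher and 0 lower in old mice. No slide held arrays of both ages, so a block by slide cannot separate slide from age. With 1 mouse left out the count ran from 26 (without young irradiated replicate 3) to 327 (without old irradiated replicate 6). The 8 interaction calls became 0 with the median of all spots, 455 with the slide as a block, 28 without old irradiated replicates 4 and 6, and 0 to 376 with 1 array left out, the highest without old irradiated replicate 3. The 4365 calls in unirradiated mice became 8417 with the median of all spots, 6001 of them higher in old mice. The causes were not tested.

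With the replicate number as a block, limma called 0 genes in irradiated mice (1809 at an unadjusted p below 0.05) and 0 in the interaction (2839). Same-numbered old and young mice correlated at -0.62 to 0.63, and of the 6 numbers only number 5 correlated best with its own. The labels state no pairing of the mice, and these correlations do not settle whether the numbers pair them.

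Log2 differences that changed sign were those of genes near 0 that were not called, except that of *Gzmk*, which was -0.98 when only probes well above background on all 12 arrays were used. With the median of all spots *Bax* was at 0.22, *Bbc3* at 0.24 and *Bcl9* at 0.087, and with the 75th percentile *Bbc3* was at 0.013. With quantile normalization *Phlda3* was at -0.13 and *Tyrobp* at -0.17, and with spike-in spots *Fasl* was at -0.14, *Phlda3* at -0.16 and *Tyrobp* at -0.19. With normexp correction *Bcl9* was at 0.28 and *Tyrobp* at -0.033. With the authors' deposited values *Bcl9* was at 1.10, *Phlda3* at -0.11 and *Tyrobp* at -0.27. *Cdkn1a* was at 0.022 with the mean of all its probes, and the gene Tyrobp at -0.0656 with the slide as a block. With array weights *Bbc3* was at 0.61, *Bcl9* at 0.54 and *Fasl* at -0.18. Without old irradiated replicates 4 and 6 *Bbc3* was at 0.52 (exact permutation p of Bbc3 = 0.0476), *Bcl9* at 0.57 (exact permutation p of Bcl9 = 0.0762) and *Fasl* at -0.044 (exact permutation p of Fasl = 0.948). With very similar arrays counted as 1 sample *Bbc3* was at 0.12 and *Bcl9* at 0.050. With 1 mouse left out *Bax* ranged from -0.12 to 0.018, *Bbc3* from -0.23 to 0.19, *Bcl9* from -0.41 to 0.16, *Phlda3* from -0.013 to 0.21, *Tyrobp* from -0.17 to 0.35 and *Fasl* from -0.17 to 0.32.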
